A study of Homo sapiens with 8 samples.

Results

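The heat shock and chaperone genes examined here are 10 genes chosen by their symbols, HSF1, HSPA1A, HSPA1B, HSPA8, HSPA5, HSPH1, HSP90AA1, DNAJB1, BAG3 and HSPB1, and each symbol matched 1 of the 28265 genes in the count tables. They were read in nascent RNA from IMR90, a widely used line of human fetal lung fibroblasts, prepared by the "factory" RNA-Seq approach, which sequences the RNA held in isolated transcription factories. The 8 libraries fall into 4 conditions of 2: low passage cells without inflachromene (labelled "young", here control), low passage cells after 3 days of inflachromene (ICM, a small molecule that binds HMGB1 and HMGB2), low passage cells after 6 days of ICM, and low passage cells labelled MetaICM, a name that the labels do not explain further. All conditions are thus wild type cells of 1 line, nothing in the labels says that the 2 libraries of a condition came from separate cultures, and p-values here measure only the spread between such libraries. The labels give poly(A) selection for these libraries, and the deposited counts are of exons, so that unfinished transcripts and finished ones cannot be told apart.

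Chaperones hold unfolded proteins, prevent their aggregation and help them to fold. In the cytosol, HSP70 proteins bind exposed stretches of a client in a cycle driven by ATP, J-domain proteins deliver the client, nucleotide exchange factors reset the cycle, and HSP90 finishes the folding of kinases and receptors. When unfolded proteins accumulate, the transcription factor HSF1 is released from chaperones, forms trimers and binds heat shock elements, arrays of GAA units in alternating orientation, at the promoters of these genes. The endoplasmic reticulum (ER) has its own HSP70, BiP, encoded by HSPA5, whose gene is driven by the unfolded protein response through a separate ER stress element.

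The promoter stretches that follow show such elements in 7 genes, and 1 window without any. They span bases -120 to -31 relative to a RefSeq transcription start (GRCh38.p14, whereas all gene positions further on are hg19), are written 5′ to 3′ on the gene's strand, and have matches in capitals, a heat shock element of 2 units (GAANNTTC or TTCNNGAA) or of 3 (GAANNTTCNNGAA or TTCNNGAANNTTC), or an ER stress element, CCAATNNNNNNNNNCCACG, searched on both strands. A match of 3 units holds 2 overlapping matches of 2 units. Matches outside the printed stretch are not shown. HSPA8 has a further match of 3 units at bases -230 to -218. HSPA6 has a match of 2 units at -180 to -173, and HSPB8 has one at 4 to 11. HSPA1A and HSPA1B are shown because they are nearly the same sequence, HSPA8 and HSP90AA1 for their match of 3 units, HSPA5 for its ER stress element, BAG3 as a called gene without a match in its window, and HSPA6 and HSPB8 as genes of a wider list of 82 chaperone genes that are described with them.
HSPA1A, chr6:31815423-31815512, plus strand: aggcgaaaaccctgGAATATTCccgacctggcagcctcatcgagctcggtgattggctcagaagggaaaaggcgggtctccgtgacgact
HSPA1B, chr6:31827618-31827707, plus strand: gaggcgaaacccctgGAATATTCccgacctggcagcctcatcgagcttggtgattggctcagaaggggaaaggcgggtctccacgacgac
HSPA8, chr11:123062167-123062256, minus strand: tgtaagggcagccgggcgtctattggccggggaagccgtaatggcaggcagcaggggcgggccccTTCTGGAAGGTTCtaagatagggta
HSP90AA1, chr14:102087075-102087164, minus strand: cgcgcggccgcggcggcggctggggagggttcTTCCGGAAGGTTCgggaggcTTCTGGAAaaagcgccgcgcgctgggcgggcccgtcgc
HSPA5, chr9:125241374-125241463, minus strand: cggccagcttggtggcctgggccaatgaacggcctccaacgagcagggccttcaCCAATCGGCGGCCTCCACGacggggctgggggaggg
BAG3, chr10:119651260-119651349, plus strand: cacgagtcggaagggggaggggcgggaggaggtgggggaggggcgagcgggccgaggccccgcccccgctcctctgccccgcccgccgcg
HSPA6, chr1:161524420-161524509, plus strand: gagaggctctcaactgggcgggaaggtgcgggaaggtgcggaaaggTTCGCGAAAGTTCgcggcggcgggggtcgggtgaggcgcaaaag
HSPB8, chr12:119178811-119178900, plus strand: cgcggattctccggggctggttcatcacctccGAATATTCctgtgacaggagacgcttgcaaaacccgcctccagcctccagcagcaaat

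Of the 10 genes, 9 had RefSeq promoter windows (from 250 bases before to 50 after a start). A heat shock element of 3 units lay in a window of 2 of these 9 (HSP90AA1 and HSPA8), and in 0.608% of all 27305 genes with a window (0.49% of 35116 windows). Of the 73 list genes with a window, 7 held one (9.59%). A match of 2 units, a frequent set of letters found in 16.2% of all genes (13.5% of windows), lay in a window of 6 of the 9 (HSPA1A, HSPA1B, HSPA8, HSP90AA1, DNAJB1 and HSPB1). It lay in 22 of the 73 list genes (30.1%). The ER stress element lay in a window of HSPA5 alone among the 9, and in 0.0916% of all genes (0.0769% of windows). It was not particular to HSPA5, as it also lay in 6 of the 73 list genes (8.22%). These were HSP90B1, PDIA6, CALR, CANX, CRELD2 and XBP1. Such a match describes the letters of the window and is no measure of binding.

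HSPA1A and HSPA1B also repeat each other along their exons, which limits how their reads can be assigned. Cut into overlapping words of 75 bases, 73.8% of the exon sequence of HSPA1A and 70.2% of that of HSPA1B occurred in the other gene. How the pairs that fit both genes were assigned is not given in the sources used here beyond the counting options of primary alignments only, so the counts of either gene are uncertain and their sum is given beside them. Both genes, and HSPA1L of the list, are also annotated on 4 other contigs, which the search for words did not cover. Of the other 8 genes, HSPB1 had the largest share of such words elsewhere in the genome, at 11.7%, followed by HSP90AA1 at 7.89%, HSPA8 at 7% and HSPA5 at 5.08%, while HSF1, HSPH1, DNAJB1 and BAG3 had none. Strand was not used in counting, and 137 exon bases of HSF1 overlap DGAT1 and 307 of HSP90AA1 overlap WDR20 on the other strand.

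**Figure D1:**
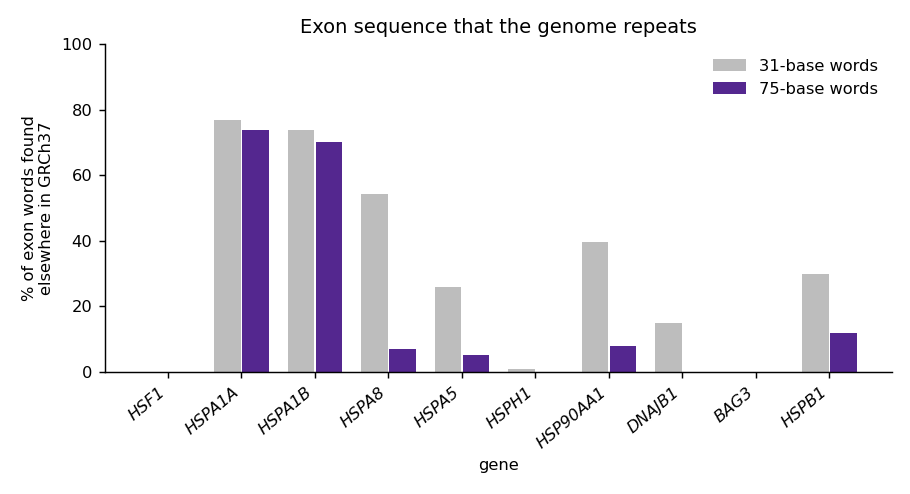
Share of each gene's exon sequence, cut into overlapping words of 31 (grey) or 75 bases (purple), that occurs again elsewhere in GRCh37, in percent, for the 10 genes. HSPA1A and HSPA1B stand at 70.2% or more at both word lengths, and the others are at 11.7% or less for 75 bases.

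Per kilobase of exon, mean levels of the 10 genes spanned a wide range. HSPA8, the constitutive cytosolic HSP70, was highest with a mean over the 8 libraries of 860.5 CPM per kb (CPM, the count scaled by library total and TMM factor, divided by exon length), and its lowest library, at 703, was above the highest library of every other gene in the set. HSP90AA1 followed with 200.2 CPM per kb, HSPA5 with 135 and HSPB1 with 85.35, and the ranges of neighbours among these overlapped. HSPH1 had 41.3 CPM per kb and BAG3 31.5, again overlapping in range. At the low end, HSF1 had 16.1 CPM per kb, HSPA1B 13.1, HSPA1A 12.1 and DNAJB1 9.83, which overlapped from neighbour to neighbour. In these bulk libraries, fewer cells making a transcript and less of it per cell cannot be told apart.

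**Figure D2:**
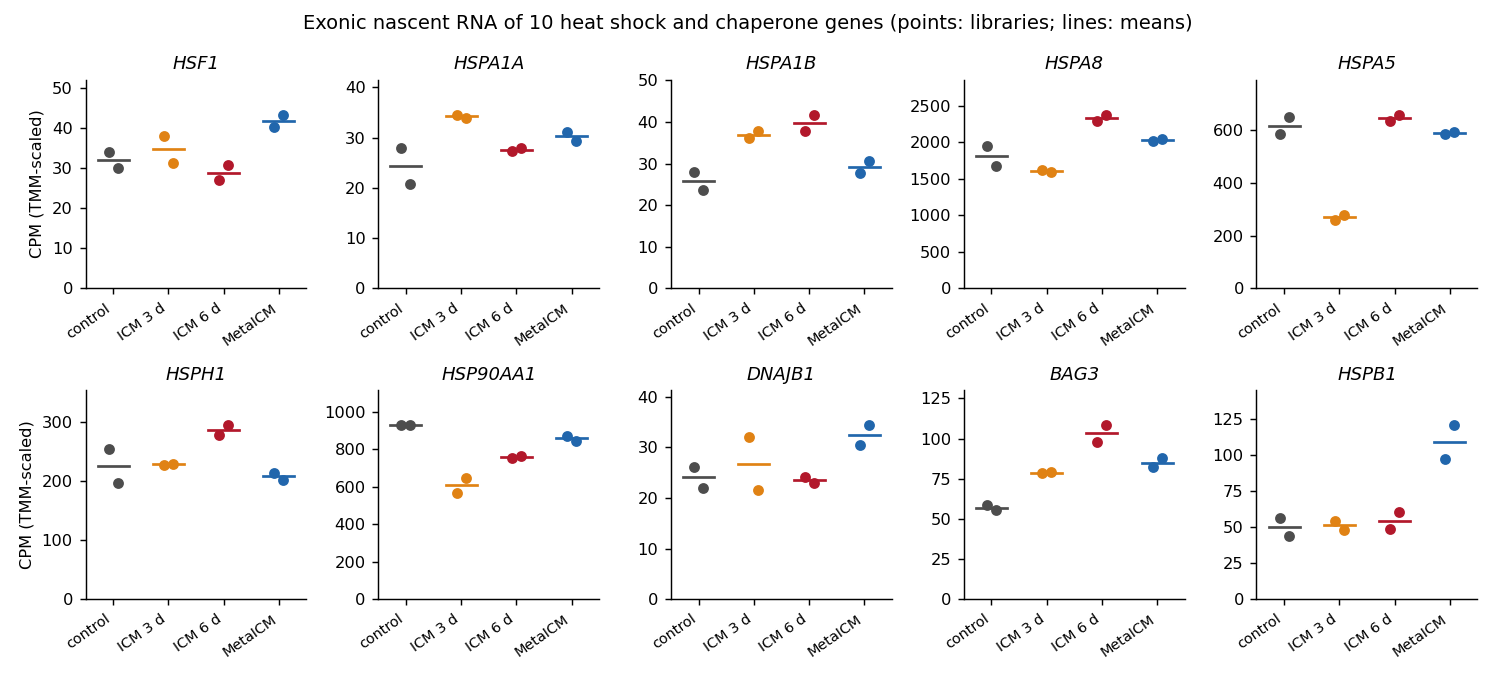
TMM-scaled CPM of the 10 genes (1 panel each, axes from 0) in the 4 conditions, with points for the 2 libraries of a condition and lines for their mean. HSPA5 drops to 261 and 279 CPM after 3 days of ICM and HSPB1 reaches 97.3 and 121 CPM in MetaICM, while BAG3 is lowest in the control libraries.

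Changes among the 10 genes were few in each of the 6 comparisons between conditions. After 3 days of ICM, BiP (HSPA5) and HSP90AA1 fell. After 6 days HSPA5 was back near its control level, and BAG3 and HSPA1B rose. The rise of HSPA1B was at the edge of the size cutoff, and the sum of HSPA1A and HSPA1B passed the thresholds in no comparison. In MetaICM HSPB1 rose. Throughout, a gene is said to have risen or fallen (to be called) where edgeR's quasi-likelihood test gave a Benjamini-Hochberg adjusted p under 0.05 over all genes tested and the log2 fold change (log2FC) was beyond 0.6 in size.

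Against control, 0 of the 10 genes rose and 2 fell after 3 days of ICM, where 8.85% of 15692 tested genes rose and 13.2% fell. After 6 days, 2 rose and 0 fell, with 13.3% of 15950 genes higher and 17.2% lower. In MetaICM, 1 rose and 0 fell, with 7.41% of 15904 genes higher and 8.99% lower. These counts are close to what the shares among all genes would give for 10 genes. Counts at an adjusted p under 0.05, whatever the size, were 5, 3 and 4 of the 10 in the same order. The share of all genes by that looser rule was not computed, so these counts cannot be read against the shares above. Median log2FC of the 10 was 0.07 after 3 days, 0.14 after 6 days and 0.24 in MetaICM, against 0.01, -0.00129 and -0.00112 over all genes tested. All of these comparisons share the control libraries. Without control replicate 1, the medians of the 10 genes were 0.22 after 3 days, 0.36 after 6 days and 0.39 in MetaICM. Those over all genes were then 0.018, 0.009 and 0.002. Leaving out replicate 1 of the 3-day libraries gave the 10 genes a median of -0.06 after 3 days. The number of the 10 genes called depended on the library left out in each comparison, as did the number of all genes called. Calls that were lost or gained are given with each gene below.

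**Figure D3:**
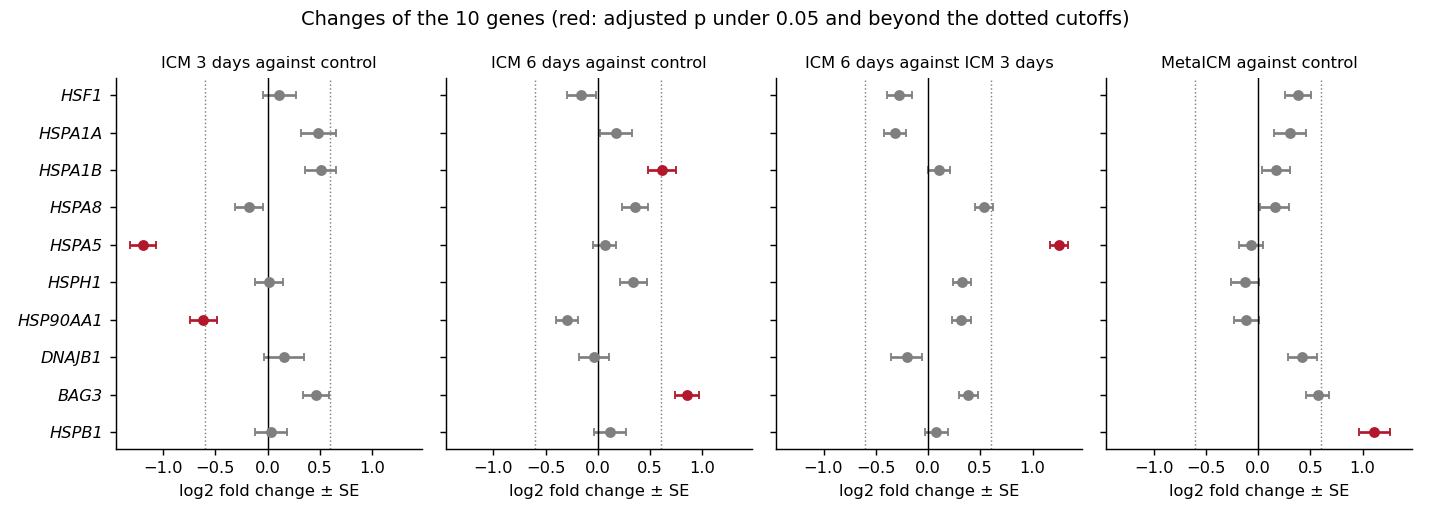
The log2 fold change of each of the 10 genes with its standard error (bars) in the 3 comparisons against control and in 6 days against 3 days of ICM. Red points passed both thresholds (adjusted p under 0.05 and a log2FC beyond the dotted lines at 0.6 either side of 0), and HSPA5 lies at -1.20 after 3 days of ICM and at 1.26 in 6 days against 3 days.

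Between the treated conditions, 1 of the 10 genes rose and 0 fell from 3 to 6 days of ICM, where 3.53% of 15845 genes rose and 4.54% fell. MetaICM against 6 days gave 1 higher and 0 lower, with 15.7% of 16036 genes higher and 12.0% lower. MetaICM against 3 days gave 2 higher and 0 lower, with 13.1% of 16209 genes higher and 10.3% lower. The genes involved were HSPA5 (from 3 to 6 days, and MetaICM against 3 days) and HSPB1 (MetaICM against 6 days and against 3 days).

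HSF1, the regulator of the cytosolic heat shock response (hg19, chr8:145515286-145538383, 13 exon blocks), received 34.1 and 30.0 CPM in the control libraries, 38.1 and 31.1 after 3 days of ICM, 26.95 and 30.7 after 6 days, and 40.3 and 43.3 in MetaICM. The MetaICM libraries lay above all 6 others, while the remaining conditions overlapped with control. Against control, log2FC was 0.11 ± 0.16 (SE) after 3 days (edgeR adjusted p = 0.635), -0.16 ± 0.14 after 6 days (edgeR adjusted p = 0.38) and 0.38 ± 0.13 in MetaICM (edgeR adjusted p = 0.0463, under the size cutoff). Against 6 days of ICM, MetaICM gave 0.54 ± 0.09 (edgeR adjusted p = 3.35e-05, also under the cutoff), and 0.64 without replicate 2 of the 6-day libraries, where HSF1 would be called. HSF1 activity is set largely by its protein, which was not measured. HSF2, a related factor that can pair with HSF1, ranged from 14.55 to 18.8 CPM over the 8 libraries and was called in none of the 6 comparisons, its edgeR adjusted p being 0.277 or more.

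HSPA1A (hg19, chr6:31783320-31785719) and HSPA1B (hg19, chr6:31795515-31798031) are genes of a single exon that encode the main stress-inducible HSP70. HSPA1A had 27.9 and 20.7 CPM in control, 34.6 and 33.9 after 3 days of ICM, 27.4 and 27.9 after 6 days, and 31.2 and 29.4 in MetaICM. HSPA1B had 28 and 23.8 CPM in control, 36.2 and 37.75 after 3 days, 37.8 and 41.8 after 6 days, and 27.9 and 30.5 in MetaICM. Both were thus above both controls after 3 days, and after 6 days HSPA1B still was, whereas the libraries of HSPA1A overlapped with control. HSPA1B rose after 6 days by a log2FC of 0.61 ± 0.14 (edgeR adjusted p = 0.00501). This call is at the edge of the size cutoff and was lost without control replicate 2 (0.51), without replicate 2 of the 6-day libraries (0.54, edgeR adjusted p = 0.0725) and when all libraries were thinned to the smallest total (0.56). After 3 days, log2FC was 0.49 ± 0.16 for HSPA1A (edgeR adjusted p = 0.0436) and 0.51 ± 0.15 for HSPA1B (edgeR adjusted p = 0.0221), under the size cutoff, and without control replicate 1 both would be called (0.73 and 0.64).

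As many pairs fit either gene, their sum is safer than either value, though the copies annotated on other contigs limit it too. The sum came to 55.95 and 44.5 CPM in control, 70.8 and 71.7 after 3 days of ICM, 65.2 and 69.7 after 6 days, and 59.1 and 59.9 in MetaICM. Every treated library was above both controls. For the sum, log2FC was 0.50 ± 0.14 after 3 days (edgeR adjusted p = 0.0211), 0.42 ± 0.13 after 6 days (edgeR adjusted p = 0.029) and 0.25 ± 0.13 in MetaICM (edgeR adjusted p = 0.176), and it was called in 0 of the 6 comparisons. The split between the genes differed between conditions, as the ratio of HSPA1B to HSPA1A was 1.38 and 1.5 after 6 days of ICM and between 0.894 and 1.15 in the other 6 libraries.

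HSPA6, a strictly stress-inducible HSP70 that is silent in most resting cells and whose promoter carries the match of 3 units printed above, had its highest counts after 3 days of ICM, all of them few. Its counts were 3 and 2 in control, 37 and 15 at day 3 of ICM, 5 and 5 at day 6, and 6 and 3 in MetaICM. The summed counts gave a ratio of 3 days to control of 8.21, with a 95% exact binomial interval from 3.3 to 26.4 that covers counting error only. Set against 6 days, the ratio was 5.32, with an interval from 2.68 to 11.7. HSPA6 passed the count filter through its 3-day libraries alone and was not tested in the comparisons without them, so its calls in the comparisons with them are not read as support. HSPA6 has a nearly identical neighbour, the pseudogene HSPA7, so its counts are also uncertain. HSPA1L, which lies head to head with HSPA1A, rose after 3 days as well, from 1.01 and 0.828 CPM to 2.80 and 2.29 (log2FC 1.46 ± 0.37, edgeR adjusted p = 0.0109), a call lost without replicate 1 of the 3-day libraries (edgeR adjusted p = 0.0885) and with DESeq2 (adjusted p = 0.0509).

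HSPA8 (hg19, chr11:122928197-122932844), the constitutive cytosolic HSP70 that also uncoats clathrin vesicles, had 1957 and 1677 CPM in control, 1622 and 1591 after 3 days of ICM, 2289 and 2381 after 6 days, and 2025 and 2042 in MetaICM. Both libraries after 3 days lay below both controls, and both after 6 days above. Against control, log2FC was -0.18 ± 0.14 after 3 days (edgeR adjusted p = 0.35) and 0.36 ± 0.12 after 6 days (edgeR adjusted p = 0.039), neither past the size cutoff. From 3 to 6 days it was 0.54 ± 0.09 (edgeR adjusted p = 0.000192), also under the cutoff. HSPH1, a large HSP70 relative (HSP110) that acts as an exchange factor, had 254 and 197 CPM in control, 227 and 229 after 3 days, 278 and 294 after 6 days, and 214 and 201 in MetaICM. Its log2FC against control was 0.01 ± 0.14 after 3 days, 0.34 ± 0.13 after 6 days (edgeR adjusted p = 0.0591) and -0.12 ± 0.13 in MetaICM, so that the 6-day libraries were the highest but the difference did not pass the test.

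HSPA5 (hg19, chr9:127997132-128003622, 8 exon blocks) showed the largest change of the 10 genes. BiP, its product, is the ER's main HSP70 and holds the stress sensors of the ER inactive. It had 584 and 648 CPM in control, 261 and 279 after 3 days of ICM, 634 and 658 after 6 days, and 584.5 and 591 in MetaICM. Both libraries after 3 days thus lay far below the 6 others. HSPA5 fell after 3 days by 1.20 ± 0.13 on the log2 scale (a control level 2.29 times as high, edgeR adjusted p = 2.18e-05). It rose from 3 to 6 days by a log2FC of 1.26 ± 0.09 (edgeR adjusted p = 7.78e-09), and MetaICM was above 3 days by 1.13 ± 0.08 (edgeR adjusted p = 6.45e-08). Against control, 6 days gave 0.06 ± 0.11 (edgeR adjusted p = 0.68) and MetaICM -0.07 ± 0.12 (edgeR adjusted p = 0.685). The calls of HSPA5 held under each alternative that was run, leaving out any 1 library included.

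Other genes of the ER did not follow HSPA5 as a block. The list groups 17 genes as ER chaperones and folding enzymes, while HSP90B1 and SIL1 stand in other groups. Of the 17, 2 rose and 2 fell after 3 days of ICM (median log2FC -0.04). After 6 days 4 rose and 1 fell (median 0.34), and in MetaICM 2 rose and 0 fell (median 0.22). Among all tested genes, 8.85% rose and 13.2% fell after 3 days, 13.3% and 17.2% after 6 days, and 7.41% and 8.99% in MetaICM. After 3 days, HERPUD1, an ER membrane protein of the degradation machinery, fell from 70.1 and 66.1 CPM to 37.1 and 32.2 (log2FC -0.98 ± 0.14, edgeR adjusted p = 0.000261), and SERPINH1, the collagen chaperone, fell by 0.72 ± 0.17 (edgeR adjusted p = 0.00648), a call lost without control replicate 1 (-0.43). Those that rose were the disulfide isomerases PDIA4 (0.65 ± 0.16, edgeR adjusted p = 0.0104) and P4HB (0.60 ± 0.16, edgeR adjusted p = 0.0149). Without control replicate 2 (0.45 and 0.38) or replicate 1 of the 3-day libraries (0.46 and 0.47) neither was called. P4HB was at the edge of the size cutoff. Its call was also lost with DESeq2 or its size factors (0.595 each) and with 10 counts required in every library (0.599). HSP90B1, the HSP90 of the ER, was at 933 and 790 CPM in control and at 889 and 762 after 3 days (log2FC -0.06 ± 0.14, edgeR adjusted p = 0.77). SERPINH1, PDIA4, P4HB and HSP90B1 were picked for mention after their values were seen.

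Of the 5 ER stress sensors and their factors on the list, ATF6, ERN1, XBP1 and DDIT3 fell after 3 days of ICM, where 13.2% of all tested genes fell, with a median log2FC of -0.70. EIF2AK3, which encodes the sensor PERK, was not called at that time, with 24.02 and 28.15 CPM in control and 29.65 and 28.04 after 3 days (log2FC 0.15 ± 0.15, edgeR adjusted p = 0.51). After 6 days 1 of the 5 was higher and 1 lower. EIF2AK3 rose to 42.2 and 38.2 CPM (0.62 ± 0.14, edgeR adjusted p = 0.00473), a call lost without control replicate 1 (0.50) or replicate 1 of the 6-day libraries (0.55). On the other strand, EIF2AK3 shares 781 exon bases with LOC101928371, and DDIT3 shares 65 with MARS1. ERN1 encodes the sensor IRE1, which splices the XBP1 transcript into an activator of ER chaperone genes. XBP1 fell from 66.35 and 67.55 CPM to 42.0 and 34.4 (log2FC -0.81 ± 0.15, edgeR adjusted p = 0.00139), and stood at 47.1 and 54.7 after 6 days. ERN1 fell from 32.1 and 27.0 CPM to 17.4 and 16.45 (-0.81 ± 0.16, edgeR adjusted p = 0.00246) and was also lower after 6 days (-0.70 ± 0.15, edgeR adjusted p = 0.00325) and in MetaICM (-0.62 ± 0.14, edgeR adjusted p = 0.00908). The MetaICM call of ERN1 was lost when control replicate 1 or either MetaICM library was left out, and that after 6 days without control replicate 1 (-0.58). Library totals or a filter of any count also took the MetaICM call of ERN1 under the size cutoff (-0.594 each). ATF6, an ER-anchored transcription factor, fell by 0.63 ± 0.13 (edgeR adjusted p = 0.00297). Its call was lost without control replicate 1 (-0.54) and with library totals (-0.55). DDIT3, the stress factor CHOP, fell by 0.70 ± 0.17 (edgeR adjusted p = 0.00972), a call lost without replicate 2 of the 3-day libraries (-0.61). ATF6, DDIT3 and EIF2AK3 were chosen after their values were seen.

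After 6 days, HERPUD1 was still lower, at 38.8 and 38.8 CPM (log2FC -0.81 ± 0.12, edgeR adjusted p = 0.000338), while HSPA5 was not. DNAJB9, an ER J-domain protein that keeps IRE1 in check with BiP, rose after 6 days from 10.1 and 9.69 CPM to 28.9 and 28.3 (1.53 ± 0.15, edgeR adjusted p = 1.96e-05). It had been at 12.1 and 8.22 CPM after 3 days, on both sides of control, so that the rise from 3 to 6 days was 1.46 ± 0.15 (edgeR adjusted p = 1.11e-06). In MetaICM, DNAJB9 was at 11.3 and 11.03 CPM, 1.36 ± 0.10 below 6 days on the log2 scale (log2FC -1.36, edgeR adjusted p = 4.9e-10). HERPUD1 was above 6 days in MetaICM, at 76.5 and 77.2 CPM (0.99 ± 0.08, edgeR adjusted p = 6.4e-10). SDF2L1, a small ER protein found in complexes with BiP, rose in MetaICM from 2.32 and 1.08 CPM in control to 4.60 and 4.65 (1.38 ± 0.31, edgeR adjusted p = 0.0104) and was also above 3 days of ICM (1.59 ± 0.27, edgeR adjusted p = 0.000251).

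**Figure D4:**
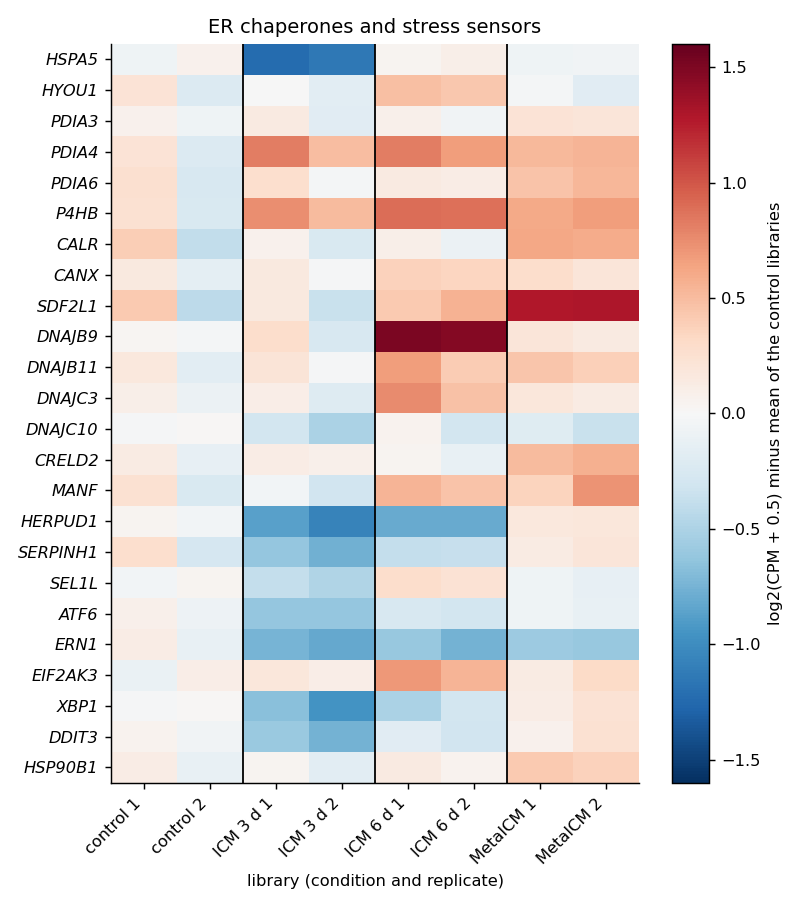
Heatmap of HSPA5 and the listed ER chaperones, folding enzymes and stress sensors (rows) in the 8 libraries (columns), coloured by log2(CPM + 0.5) minus the mean of the 2 control libraries (blue lower, red higher). HSPA5 is dark blue only in the 3-day libraries, HERPUD1 is blue in both ICM time points, DNAJB9 is dark red only in the 6-day libraries and SDF2L1 only in MetaICM.

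HSP90AA1 (hg19, chr14:102547079-102606086, 13 exon blocks) encodes the inducible cytosolic HSP90. It had 929 and 927 CPM in control, 566 and 649 after 3 days of ICM, 755 and 763 after 6 days, and 873 and 846 in MetaICM. All 6 libraries of the other conditions were below both controls, and the 3-day libraries were the lowest. HSP90AA1 fell after 3 days (log2FC -0.62 ± 0.13, edgeR adjusted p = 0.00377). The call was lost without replicate 1 of the 3-day libraries (-0.53, edgeR adjusted p = 0.0917) and with library totals in place of TMM scaling (-0.54). Against control, 6 days gave -0.29 ± 0.11 (edgeR adjusted p = 0.0511) and MetaICM -0.11 ± 0.12 (edgeR adjusted p = 0.503). HSP90AB1, the constitutive partner gene, was at 1068 and 816 CPM in control and 848 and 825 after 3 days (-0.17 ± 0.15, edgeR adjusted p = 0.405), and the difference between the 2 genes was not tested.

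Among 12 HSP90 co-chaperones, 1 rose and 1 fell after 3 days of ICM, 4 rose and 1 fell after 6 days, and 2 rose in MetaICM. The shares of all tested genes were 8.85% higher and 13.2% lower after 3 days, and 13.3% and 17.2% after 6 days. In MetaICM they were 7.41% and 8.99%. FKBP5, an immunophilin that tunes steroid receptors bound to HSP90, was the one that fell: from 18.4 and 18.3 CPM in control to 6.71 and 9.03 after 3 days (log2FC -1.24 ± 0.19, edgeR adjusted p = 0.000513) and 11.3 and 12.3 after 6 days (-0.64 ± 0.15, edgeR adjusted p = 0.00653). The 6-day call was lost without replicate 1 of the 6-day libraries (-0.58, edgeR adjusted p = 0.121). In MetaICM it was at 13.2 and 15.0 CPM and was not called against control. The others were named after their values were seen. STUB1, a ubiquitin ligase of chaperone clients, rose after 3 days (0.77 ± 0.19, lost without replicate 1 of the 3-day libraries) and in MetaICM (1.03 ± 0.15). CDC37 rose after 6 days and in MetaICM (0.70 ± 0.20 and 0.72 ± 0.20, both lost without control replicate 2). Its 6-day call was also lost with DESeq2 (adjusted p = 0.137) and with a filter of any count (edgeR adjusted p = 0.0524). Leaving out replicate 1 of the 6-day libraries lost it too (0.69). AHSA1, FKBP4 and PPID rose after 6 days. Of these, AHSA1 (0.60) and PPID (0.49) were lost without control replicate 2, and PPID also without replicate 1 of the 6-day libraries. STUB1 shares 700 exon bases with JMJD8 on the other strand, PPID 497 with ETFDH and FKBP4 187 with ITFG2-AS1.

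BAG3 (hg19, chr10:121410882-121437329, 4 exon blocks), an exchange factor that links HSP70 to small heat shock proteins and to selective autophagy, had 58.7 and 55.5 CPM in control, 78.6 and 78.9 after 3 days of ICM, 98.1 and 108 after 6 days, and 82.2 and 87.9 in MetaICM. No library of another condition overlapped with control, and the highest were those after 6 days. BAG3 rose after 6 days (log2FC 0.85 ± 0.12, edgeR adjusted p = 0.000243), a call that held with each library left out. After 3 days log2FC was 0.46 ± 0.13 (edgeR adjusted p = 0.0175) and in MetaICM 0.57 ± 0.11 (edgeR adjusted p = 0.00513), under the size cutoff. Without control replicate 1 (0.61) or MetaICM replicate 1 (0.64) BAG3 would also be called in MetaICM. From 3 to 6 days it differed by 0.39 ± 0.09 (edgeR adjusted p = 0.00601), again under the cutoff.

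DNAJB1, the HSP40 that delivers clients to stress-inducible HSP70 and a standard reporter of HSF1 activity, had 26.2 and 21.9 CPM in control, 32.1 and 21.5 after 3 days of ICM, 24.2 and 22.9 after 6 days, and 30.4 and 34.4 in MetaICM. The ICM libraries overlapped with control, and the MetaICM libraries were above it. In MetaICM, log2FC was 0.42 ± 0.14 (edgeR adjusted p = 0.046, under the cutoff), and after 3 and 6 days it was 0.16 ± 0.20 and -0.04 ± 0.14 (edgeR adjusted p = 0.588 and 0.845). Of the 11 J-domain genes of the list that were not grouped with its ER chaperones, DNAJB4 was the 1 called after 6 days, where 13.3% of all tested genes rose. DNAJB4, a heat-inducible HSP40, rose from 77.1 and 76.4 CPM to 179 and 209 after 6 days (1.33 ± 0.12, edgeR adjusted p = 1.2e-05), having been at 106 and 113 after 3 days, and at 103 and 104 in MetaICM. From 3 to 6 days its rise was 0.82 ± 0.09 (edgeR adjusted p = 5.06e-06).

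HSPB1 (hg19, chr7:75931990-75933609, 3 exon blocks) encodes HSP27, a small heat shock protein that holds unfolded clients without ATP and binds actin filaments. It had 56.5 and 43.9 CPM in control, 54.5 and 48.3 after 3 days of ICM, 48.8 and 60.4 after 6 days, and 97.3 and 121 in MetaICM. Libraries of the ICM time points overlapped with control, and those of MetaICM were above all 6 others. HSPB1 rose in MetaICM by a log2FC of 1.11 ± 0.15 against control (edgeR adjusted p = 0.00095), 1.00 ± 0.10 against 6 days (edgeR adjusted p = 3.44e-08) and 1.09 ± 0.11 against 3 days (edgeR adjusted p = 1.84e-06), and these calls held under each alternative. Against control, it was 0.03 ± 0.15 after 3 days (edgeR adjusted p = 0.905) and 0.12 ± 0.15 after 6 days (edgeR adjusted p = 0.581).

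The other small heat shock proteins took different courses. HSPB8, which works with BAG3 in selective autophagy, had 11.4 and 9.69 CPM in control, 39.35 and 35.05 after 3 days of ICM, 51.8 and 55.1 after 6 days, and 14.55 and 13.7 in MetaICM. It rose after 3 days (log2FC 1.81 ± 0.17, edgeR adjusted p = 6.28e-06) and 6 days (2.33 ± 0.14, edgeR adjusted p = 8.47e-07), and was lower in MetaICM than after 6 days (-1.92 ± 0.09, edgeR adjusted p = 1.83e-13) or 3 days (-1.40 ± 0.11, edgeR adjusted p = 1.65e-07). CRYAB, αB-crystallin, was highest in MetaICM, as HSPB1 was, but at far lower levels. Its counts were 9 and 3 in control, 21 and 8 after 3 days, 22 and 16 after 6 days, and 53 and 46 in MetaICM, and the summed counts gave a ratio of MetaICM to control of 5.51 with a 95% exact binomial interval from 3.02 to 11. The interval, like the one against 6 days that follows, covers counting error only. CRYAB passed the count filter of the comparison with control only through MetaICM, so its call there is not read as support. Against 6 days the ratio was 2.26, from 1.54 to 3.37 (edgeR adjusted p = 0.00344, or 0.0505 without MetaICM replicate 1). HSPB6 was called after 6 days and in MetaICM, with control at 1.07 and 2.815 CPM and the later conditions at 4.19 and 4.62 and at 4.06 and 3.99 CPM, but without control replicate 1 the edgeR adjusted p was 0.0986 after 6 days and 0.161 in MetaICM.

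**Figure D5:**
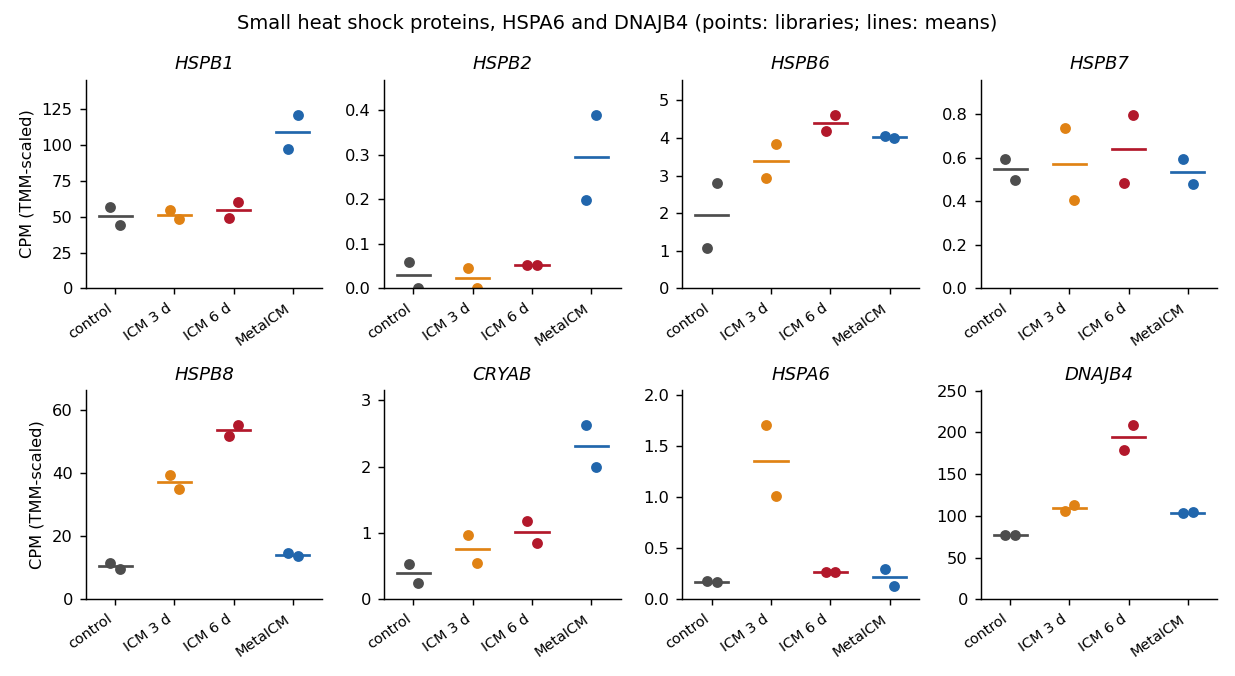
TMM-scaled CPM of the 6 listed small heat shock genes, HSPA6 and DNAJB4 (1 panel each, axes from 0) in the 4 conditions, with points for libraries and lines for means. HSPB8 and DNAJB4 are highest in the 6-day libraries, HSPB1 and CRYAB in MetaICM, and HSPA6 in the 3-day libraries.

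Over the whole list of 82 further chaperone genes, 6 of 79 tested rose and 7 fell after 3 days of ICM (median log2FC 0.07), 16 of 80 rose and 3 fell after 6 days (0.22), and 6 of 80 rose and 1 fell in MetaICM (0.21), to be read against the shares among all genes given above. From 3 to 6 days, 6 of 81 rose and 1 fell. In MetaICM, 4 of 80 were higher and 4 lower than after 6 days, and 10 of 81 higher and 3 lower than after 3 days. The call of HSPA6 after 3 days and that of CRYAB in MetaICM are among these counts. With 1 library left out, the median log2FC of the list ran from -0.03 to 0.17 after 3 days and from 0.14 to 0.33 after 6 days. In MetaICM against control it ran from 0.13 to 0.30. Each was lowest without control replicate 2 and highest without control replicate 1. The numbers called also depended on the library left out, for the list and for all genes. By role, 0 of the 10 cytosolic and mitochondrial chaperonin genes, such as the CCT subunits, were called in any of the 6 comparisons. Of the 9 other HSP70 genes, HSPA4 and HSPA4L rose after 6 days, and of the 7 exchange factors GRPEL1 and SIL1 did, all 4 named after their values were seen. Without control replicate 2, HSPA4 (0.56), GRPEL1 (0.59) and SIL1 (0.59) were not called.

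Across the 8 libraries, each of the 10 genes was most like a different gene of the list, by Pearson's r of log2(CPM + 0.5). The closest was FKBP5 for HSP90AA1 (r = 0.978), then HSPB2 for HSPB1 (0.969), HSPB8 for HSPA1B (0.958), HYOU1 for HSPH1 (0.95), UNC45A for HSPA1A (0.935), AHSA1 for BAG3 (0.929), HSP90AB1 for HSPA8 (0.921), PDIA3 for DNAJB1 (0.904), SEL1L for HSPA5 (0.877) and CRELD2 for HSF1 (0.849). These values describe 8 points from 4 conditions, which share the scaling of their libraries, and each is the highest of 82. HSPB2 had at most 9 counts in any library.

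The 8 libraries held between 12095123 and 23166405 counted pairs, and replicates correlated at 0.988 to 0.996 (log2 CPM), with the control libraries farthest apart (a median difference of 0.216 on the log2 scale against 0.112 to 0.164). Summed over 10 fibroblast markers, levels were 23420 and 23252 CPM in control, 14432 and 13048 after 3 days, 11417 and 11049 after 6 days, and 20390 and 21280 in MetaICM, and all 10 were detected in every condition. Markers of epithelial, endothelial and blood cells (10 genes) summed to 9.33 and 7.12 CPM in control, 25.1 and 22 after 3 days, 25.7 and 23.5 after 6 days, and 16.5 and 15.1 in MetaICM, mostly CD68 at 4.22 to 20.5, and CD3E was at 0 in every library. The 9 immediate early genes, such as FOS and EGR1, which respond to handling, summed to 426 and 433 CPM in control, 641 and 546 after 3 days, 544 and 635 after 6 days, and 335 and 423 in MetaICM, and their part in the results was not tested.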

How the data were processed

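Factory RNA-Seq counts of 8 IMR90 libraries, 2 for each of 4 conditions, were used. The authors aligned paired reads to hg19 with STAR (2.6.0c per the submitters' processing notes) and deposited, per the file headers, counts of read pairs on RefSeq exons from featureCounts (1.6.3), with primary alignments, both ends mapped, no chimeric pairs and no use of strand. These counts are not normalized. The study's own nascent values rest on introns, which were not analysed here.

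Genes passing filterByExpr (minimum count 10) were fitted in edgeR (4.0.16, R 4.3.3) for each pair of conditions (4 libraries), with TMM scaling, the quasi-likelihood test and Benjamini-Hochberg adjustment over all genes tested. A call needed an adjusted p under 0.05 and a log2FC beyond 0.6 in size. SE is the log2FC divided by the square root of the test's F. CPM were TMM-scaled over all 8 libraries. Levels per kb used the exons on the main chromosomes. Library totals ran from 12095123 to 23166405 counts. Promoter sequences are RefSeq's (GRCh38.p14).

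The members and lists were chosen with earlier results of these data known. All 82 list genes were found. Beside the 10 genes, up to 3 list genes per direction against control and 2 in other comparisons were named by size of log2FC among the called (non-overlapping libraries, at least 10 counts in each higher library), as were HSF2, HSPA6 and each gene's closest match. Other names are marked as chosen later.

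Alternatives were DESeq2 (1.42.0), scaling by DESeq2 size factors, by upper quartiles or by library totals, filters of any count or of 10 counts in every library, a single fit of the 8 libraries, a block on the replicate number, an adjusted p under 0.01, thinning, HSPA1A and HSPA1B summed, and each library left out, which leaves 1 library assumed to vary like the others. The fits were tested on simulated data, where 67% to 78.8% of changes of 1 on the log2 scale were recovered over the 6 comparisons. For changes of 2 it was 93% to 99%. A gene that was not called can therefore still differ. Python 3.11.15 with scipy handled sequences and exact binomial intervals at 95%.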

Additional observations from a re-analysis of the deposited data

Results flagged for a closer look

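By edgeR's test of 6 against 3 days of ICM, the changes against the same controls differed for 1 of the 10 genes. They also differed for 7 of 81 list genes tested (6 higher and 1 lower). Of all genes tested, 3.53% were higher and 4.54% lower. The increases of the list were thus above that share and its decreases below it, from few genes, and this was not tested. For HSPA5 the log2 change at 6 days was higher than that at 3 days by 1.26, as it fell at 3 days and was near control at 6 days. The ER genes DNAJB9 (1.46), SEL1L (0.68), MANF (0.675) and DNAJC3 (0.657) also had a higher log2 change at 6 days, as had DNAJB4 (0.821) and HSPA4L (0.696). HSPA6 had a lower one (-2.36), from 52 counts after 3 days and 10 after 6 days, and it passed the count filter through the 3-day libraries alone, so that its call is not read as support. DNAJC3 passed neither without replicate 2 of the 3-day libraries (0.506) nor without replicate 1 of the 6-day libraries (0.502), nor did MANF without replicate 2 of the 3-day libraries (0.551). With 2 libraries a condition, no test for outlying libraries was possible.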

How the results depend on the processing

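No change of direction was found for a called gene. Of the 10 genes' values under alternatives, 877 stayed on the same side of the thresholds, 5 lost a call (HSP90AA1 and HSPA1B, given with their values in the report) and 6 gained one, and for called list genes 922 stayed and 77 lost the call. The number of the 10 genes called after 3 days of ICM was 1 with library totals in place of TMM. With a library left out, this number and that of all genes moved, with medians of the 10 genes from -0.063 to 0.222 (log2FC). After 6 days the number of the 10 genes called was 1 when thinned and 1 when HSPA1A and HSPA1B were summed. It also moved with a library left out, with medians from 0.068 to 0.356. In MetaICM against control, 3 list genes were called at an adjusted p under 0.01 and 4 to 16 with a library left out, with 1 to 2 of the 10 genes called and medians from 0.0858 to 0.386. In MetaICM against 6 days the median was -0.135 with HSPA1A and HSPA1B summed, and HSF1 joined the calls without replicate 2 of the 6-day libraries (0.641). In MetaICM against 3 days, the median ran from 0.13 to 0.385 with a library left out, and HSP90AA1 joined without replicate 2 of the 3-day libraries (0.607).

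With library totals, 50.3% of all calls after 3 days were increases, against 40.2% with TMM, and the cause was not tested. Deviations of same-numbered libraries correlated at -0.135 to 0.227, so the numbers were not taken as pairs. With the replicate number as a block, the numbers of the 10 genes called did not change (2, 2, 1, 1, 1 and 2 in the 6 comparisons), and list genes called went from 13 to 14 after 3 days, from 19 to 20 after 6 days and from 7 to 8 in MetaICM against control. Counts of HSPA6, HSPB2 and CRYAB, at 53 or fewer in every library, limit what can be said of them.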
